A study of Mus musculus with 4 samples.

Results

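The genes described here were 10 transcripts by which post-mitotic neurons are usually recognised: *Tubb3*, *Map2*, *Mapt*, *Dcx*, *Stmn2*, *Gap43*, *Nefl*, *Nefm*, *Ina* and *Elavl3*. They were taken by symbol from a published record of cultured mouse neural progenitors, and all 10 were found among its 21091 entries. All 10 also passed the minimum used throughout, an average over the 4 libraries of 1 FPKM or more, which 12449 entries reached. FPKM is a fragment count divided by transcript length and by the mapped fragments of the library, so levels of different genes can be set side by side on it.

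A young neuron builds an axon and dendrites on a scaffold of microtubules and neurofilaments. Microtubules are polymers of α- and β-tubulin that are bundled by microtubule-associated proteins and made more or less stable by other partners, while neurofilaments are rope-like polymers that fill and widen the axon. Neuronal ELAV (Hu) proteins bind AU-rich stretches of messenger RNA and act on its stability and splicing, and together these genes are turned on as a progenitor leaves the cell cycle.

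RNA-seq was performed on progenitors dissected from the brains of C57BL/6 embryos at embryonic day 11 (E11) or 14 (E14) and kept for 3 days in serum-free suspension culture with EGF and FGF, where they grow as neurospheres. At either stage a control (CTL) and a *Stat3* cKO culture were sequenced, giving 4 groups with 1 library each. In *Stat3* cKO embryos both *Stat3* alleles carry loxP sites around the exons for the SH2 domain, and Cre is driven by a rat *Nestin* promoter and enhancer that is active in neural progenitors. The control is labelled WT and the study's RNA-seq methods also call it wild-type, whereas its animal methods name Nestin-Cre embryos with a single floxed allele as controls. How many embryos went into a library is not stated. With 1 library per group there was no replicate check, and no difference below has a test or an error between replicates.

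Depth was similar in the libraries. The smallest steps between low FPKM values showed that 1 FPKM stood for about 47.8 and 37.2 fragments per kilobase in the CTL and *Stat3* cKO libraries of E11, and for about 41.5 and 44.6 in those of E14. *Stat3* itself stood at 7.41 and 6.74 FPKM in E11 CTL and E11 *Stat3* cKO, and at 27.6 and 9.55 FPKM in E14 CTL and E14 *Stat3* cKO. The *Stat3* cKO level was thus 0.911 times CTL at E11 and 0.346 times CTL at E14, where reads from the exons that Cre leaves in place still count. According to the study the knockout is reached by E14, and values per gene do not show how far the exons were deleted in the E11 culture. The Y-linked transcript *Ddx3y* was listed at 0 in both E11 libraries, at 0.0569 FPKM in E14 CTL and at 25.1 FPKM in E14 *Stat3* cKO, and *Kdm5d*, *Eif2s3y* and *Uty* had the same pattern, so the sex of the embryos cannot be told apart from genotype at E14, nor from stage in *Stat3* cKO. Markers of mesenchyme moved with stage. Their 5 genes summed at E11 to 1020 FPKM in CTL against 920 in *Stat3* cKO, and at E14 to 11.8 against 8.32, and all 5 were more than 2-fold lower at E14 in both genotypes, beside 12.5% of all genes in CTL and 11.7% in *Stat3* cKO. In such bulk cultures fewer cells of a type and less RNA per cell cannot be told apart, and the part that culture composition plays in any value below was not tested.

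The 10 genes spanned a wide range of levels within each library. *Tubb3*, the neuron-specific β-tubulin, was the highest in all 4 libraries, and *Nefm*, the medium neurofilament subunit, was the lowest in all 4. At E11 the CTL order was *Tubb3*, *Map2*, *Gap43*, *Stmn2*, *Dcx*, *Nefl*, *Mapt*, *Ina*, *Elavl3* and *Nefm*. In E14 CTL *Gap43* stood above *Map2*, *Mapt* stood above *Dcx*, and *Elavl3* stood above *Ina*. Their median level at E11 was 37.9 FPKM for CTL and 32.9 for *Stat3* cKO, and at E14 it was 54.1 and 46.3, against a median of 11.2, 11.7, 12.1 and 11.6 FPKM over all genes of the same libraries. In E14 CTL, 95.9% of all genes analysed were below *Gap43*, whereas 9.08% were below *Nefm*. With a single library per group, neighbours in these orders cannot be separated beyond replicate spread.

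**Figure D1:**
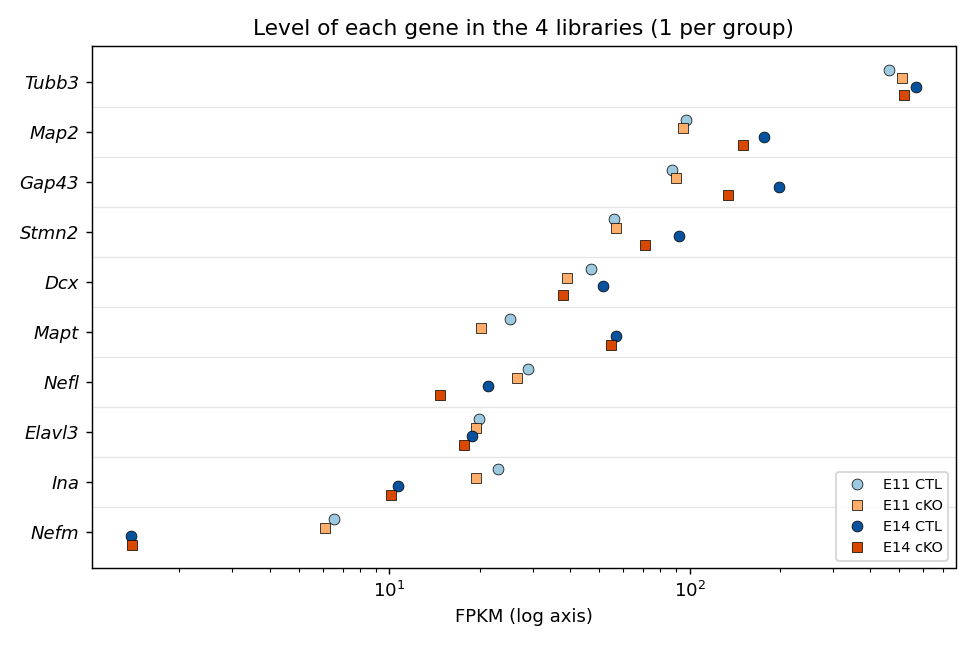
Level of each of the 10 genes in the 4 libraries, in FPKM on a log axis, with 1 point per library, circles for CTL, squares for *Stat3* cKO, pale symbols for E11 and dark symbols for E14. *Tubb3* lies between 463 and 569 FPKM, *Nefm* lies at 6.55 and 6.11 FPKM at E11 and at 1.38 and 1.39 at E14, and *Gap43* has its E14 CTL value of 199 FPKM apart from the E14 *Stat3* cKO value of 134.

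Among the microtubule genes, *Tubb3* was measured at E11 at 463 FPKM in CTL against 510 in *Stat3* cKO, and at E14 at 569 against 517. Its highest value was 1.23 times its lowest. The *Stat3* cKO value was above CTL at E11, with a log2 ratio of 0.14, and below CTL at E14, with a log2 ratio of -0.14. *Tubb3* (8:125935463-125945910, as listed with the deposited values) supplied 19.4% and 18.5% of the summed FPKM of 7 β-tubulin genes in E11 CTL and E11 *Stat3* cKO, and 14.9% and 15.8% in E14 CTL and E14 *Stat3* cKO. The largest share was that of *Tubb5*, a β-tubulin that dividing cells also use, which lay between 35.6% in E14 *Stat3* cKO and 51.6% in E11 *Stat3* cKO over the 4 libraries. *Tubb2a* had 4.24% in E11 CTL and 12.2% in E14 CTL.

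*Map2*, which bundles microtubules in dendrites, was measured at E11 at 97.2 FPKM in CTL against 94.9 in *Stat3* cKO, and at E14 at 177 against 151. Both E14 values stood above both E11 values. Stage ratios on the log2 scale were 0.87 in CTL and 0.67 in *Stat3* cKO. *Mapt*, which encodes the axonal microtubule-binding protein tau, was measured at E11 at 25.3 FPKM in CTL against 20.2 in *Stat3* cKO, and at E14 at 56.8 against 54.7. Again both E14 libraries were above both E11 libraries, and the stage ratio reached 2.25-fold in CTL and 2.71-fold in *Stat3* cKO. *Mapt* had the lowest of the 10 genotype ratios at E11, a log2 value of -0.33, but was near CTL at E14, at -0.06. *Mapt* was 0.260 and 0.212 times *Map2* at E11, and 0.32 and 0.362 times *Map2* at E14, in CTL and *Stat3* cKO respectively.

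*Dcx* encodes doublecortin, a microtubule-binding protein of migrating neurons. It was measured at E11 at 46.9 FPKM in CTL against 39.2 in *Stat3* cKO, and at E14 at 51.4 against 37.9. Both *Stat3* cKO values lay below both CTL values, at 0.836 times CTL at E11 and 0.738 times CTL at E14. *Dcx* is on the X chromosome (X:140290384-140367762), and it was the single X-linked gene of the 10, so the difference in Y-linked transcripts between the E14 libraries stands beside its E14 ratio, and its part in that ratio was not tested. Its share of the summed FPKM of *Dcx*, *Dclk1* and *Dclk2* was 50.4% in CTL and 45.4% in *Stat3* cKO at E11, and 36.2% and 32.4% at E14. *Dclk1*, its closest relative, was at 26.2 and 26.7 FPKM at E11 and at 49.9 and 47.4 FPKM at E14, in CTL and *Stat3* cKO.

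*Stmn2*, which encodes a growth-associated stathmin that binds tubulin and acts on microtubule turnover, was measured at E11 at 55.9 FPKM in CTL against 56.8 in *Stat3* cKO, and at E14 at 92.6 against 71.3. The E11 libraries were nearly equal, and the E14 libraries were apart, with *Stat3* cKO at 0.770 times CTL. *Stmn1*, the stathmin most abundant in dividing cells, supplied 75.3% to 81.5% of the summed FPKM of the 4 stathmin genes, and *Stmn2* supplied 4.10% to 5.09%.

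*Gap43*, a membrane protein of the growth cone, was measured at E11 at 87.1 FPKM in CTL against 90.3 in *Stat3* cKO, and at E14 at 199 against 134. Both E14 values were above both E11 values. The stage ratio was 2.29-fold in CTL and 1.48-fold in *Stat3* cKO. Its E14 genotype ratio, 0.672 or -0.57 on the log2 scale, was the lowest of the 10, and 7.97% of all genes had a lower ratio. Set against *Tubb3* of the same library, which no scaling between libraries can alter, *Gap43* was 0.188 times *Tubb3* for CTL and 0.177 times for *Stat3* cKO at E11, and 0.350 and 0.259 times at E14.

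The 3 neuronal intermediate filament genes were lower at E14 than at E11 in both genotypes. *Nefl*, which encodes the light subunit on which neurofilaments assemble, was measured at E11 at 28.9 FPKM in CTL against 26.6 in *Stat3* cKO, and at E14 at 21.4 against 14.7. Its E14 *Stat3* cKO value was the lowest of the 4, at 0.689 times E14 CTL. *Nefm* was measured at E11 at 6.55 FPKM in CTL against 6.11 in *Stat3* cKO, and at E14 at 1.38 against 1.39. The E14 values were 0.211 times E11 in CTL and 0.228 times E11 in *Stat3* cKO, the lowest stage ratios of the 10.

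*Ina*, which encodes α-internexin, a filament protein that neurons make early, was measured at E11 at 23.0 FPKM in CTL against 19.5 in *Stat3* cKO, and at E14 at 10.7 against 10.1. The E14 values were 0.467 times E11 in CTL and 0.517 times E11 in *Stat3* cKO. *Ina* was listed with the same locus as the 5′-nucleotidase gene *Nt5c2* (19:46961320-47098836). In GENCODE M21 (GRCm38) these genes lie head to head on opposite strands and overlap by 456 bases, and since strand-specific counting is not stated, reads in the overlap cannot be assigned. *Nt5c2* at E11 had 22.3 FPKM in CTL against 23.4 in *Stat3* cKO, and at E14 18.0 against 14.9. *Nefl* and *Nefm* are neighbours on chromosome 14 and overlap by 5233 bases in GENCODE M21, although their listed loci were separate. *Nefm* was 0.227 and 0.230 times *Nefl* in E11 CTL and E11 *Stat3* cKO, and 0.0646 and 0.0946 times *Nefl* in E14 CTL and E14 *Stat3* cKO. *Nefh* and *Prph*, the heavy neurofilament subunit and the filament gene of peripheral neurons, stayed under 1 FPKM in all 4 libraries.

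*Elavl3*, which encodes the neuronal RNA-binding protein HuC, was the most even of the 10. It was measured at E11 at 19.9 FPKM in CTL against 19.4 in *Stat3* cKO, and at E14 at 18.9 against 17.8, so that its highest value was 1.12 times its lowest. *Elavl2* and *Elavl4*, the genes for the other neuronal Hu proteins, and *Elavl1*, the gene for the HuR protein found in most cells, were lower in *Stat3* cKO at E14, with log2 ratios of -0.43, -0.25 and -0.43. The *Elavl3* share of the summed FPKM of the 4 *Elavl* genes was lowest in E11 *Stat3* cKO, at 18.6%, and highest in E14 *Stat3* cKO, at 25.1%, with 21.7% in E14 CTL.

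**Figure D2:**
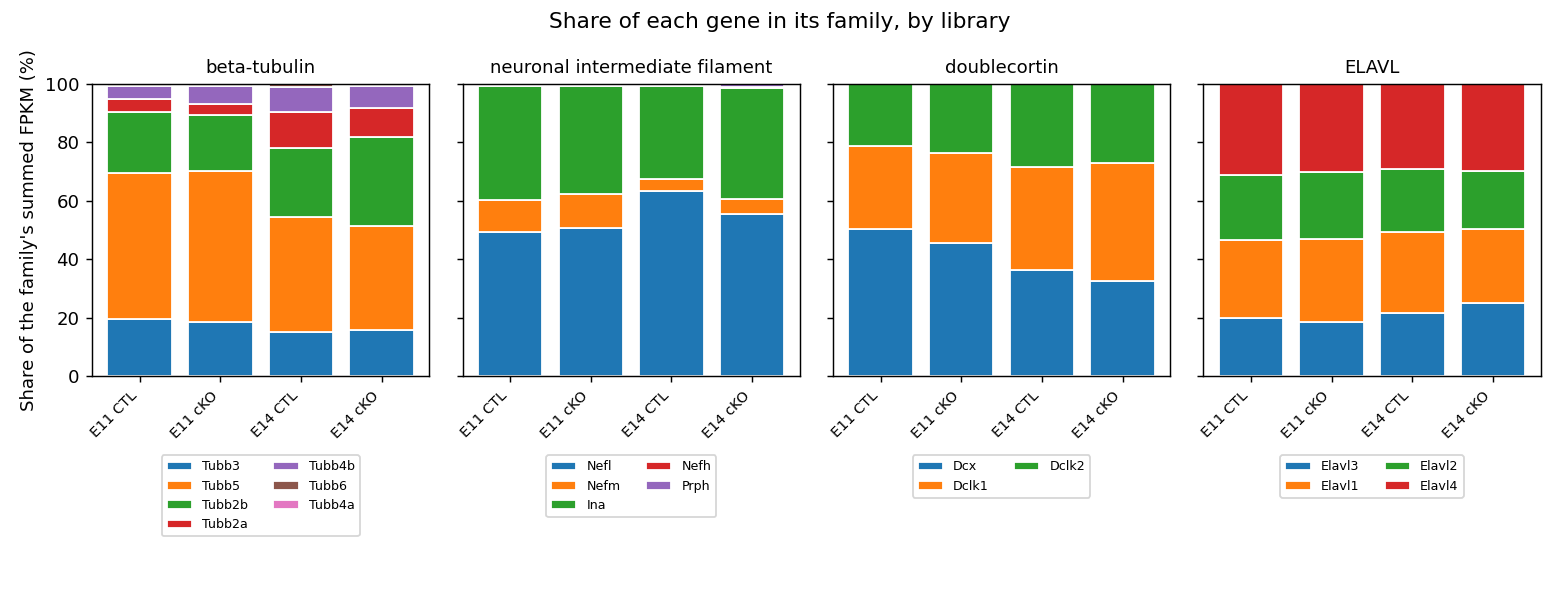
Share of each gene in the summed FPKM of its family, in percent, for the β-tubulin, neuronal intermediate filament, doublecortin and *Elavl* families, with 1 stacked bar per library. *Nefl* holds 49.1% of its family in E11 CTL and 63.3% in E14 CTL while *Nefm* holds 11.1% and 4.09%, and *Dcx* holds from 50.4% in E11 CTL to 32.4% in E14 *Stat3* cKO.

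Sequence upstream of the transcription start is shown for 3 of the genes because they differed by stage: *Map2* was higher at E14, *Ina* was lower at E14 and *Elavl3* differed little. The sequences are RefSeq (GRCm38.p6), read 5′ to 3′ on the strand of the gene, limited to the 250 bases before the start and to bases that no GENCODE M21 exon covers. Capitals mark CAGNTG on either strand, the E-box form bound by proneural bHLH factors. *Map2* (chr1:66175079-66175272, plus strand) is cut to 194 bases, *Ina* is chr19:47014431-47014680 on the plus strand, and *Elavl3* is chr9:22052024-22052273 on the minus strand.
Map2: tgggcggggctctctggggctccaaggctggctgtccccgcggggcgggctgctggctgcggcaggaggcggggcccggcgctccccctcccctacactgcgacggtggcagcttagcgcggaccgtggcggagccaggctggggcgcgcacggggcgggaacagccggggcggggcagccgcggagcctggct
Ina: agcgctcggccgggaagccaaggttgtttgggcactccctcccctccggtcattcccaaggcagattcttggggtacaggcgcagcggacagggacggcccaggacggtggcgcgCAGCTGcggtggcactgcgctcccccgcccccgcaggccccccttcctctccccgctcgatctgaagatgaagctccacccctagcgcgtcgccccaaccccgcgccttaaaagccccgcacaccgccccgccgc
Elavl3: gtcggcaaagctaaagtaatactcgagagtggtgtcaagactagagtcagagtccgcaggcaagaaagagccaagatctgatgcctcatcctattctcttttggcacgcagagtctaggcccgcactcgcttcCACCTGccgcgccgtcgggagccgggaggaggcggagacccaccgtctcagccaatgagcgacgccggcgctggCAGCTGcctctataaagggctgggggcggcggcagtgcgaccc
The *Map2* stretch had no match and 79.4% G and C, the *Ina* stretch had 1 match, at position -135 from the start, and the *Elavl3* stretch had 2 matches, at positions -117 and -43. Of the 10 genes, 5 matched a RefSeq promoter entry (*Dcx*, *Elavl3*, *Ina*, *Map2* and *Tubb3*, with 6 windows). CAGNTG was in 2 of these 6 windows and in 44.8% of all 32851 windows. TTCNNNGAA, the palindrome typical of STAT sites, was in 0 of the 6 windows and in 7.02% of all windows. These matches are descriptions of letters and were not tested as binding sites.

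*Stat3* cKO was then compared with CTL at each stage, where *Stat3* itself was 0.911 times CTL at E11 and 0.346 times at E14. None of the 10 reached 2-fold in either direction. At E11, 0 were 2-fold or more above CTL and 0 were 2-fold or more below it, against 0.209% and 1.12% of 12430 genes with a ratio, and 0 were at least 1.5-fold lower against 3.66%. At E14 these counts were again 0, against 1.85% of genes at least 2-fold higher, 1.69% at least 2-fold lower and 7.67% at least 1.5-fold lower. By any margin, 7 of 10 were lower in *Stat3* cKO at E11, where 38.2% of all genes were lower, and 9 of 10 at E14, where 60.1% of all genes were lower. The exceptions were *Tubb3*, *Stmn2* and *Gap43* at E11 and *Nefm* at E14. With ratios centred on the median of all genes these counts were 9 of 10 at E11 and 8 of 10 at E14, beside 50% of all genes by construction. Under upper-quartile scaling they were 9 of 10 at E11, beside 51.9% of all genes, and 5 of 10 at E14, beside 40.2%. The median log2 ratio of the 10 was -0.07 at E11 beside 0.06 for all genes, and -0.18 at E14 beside -0.08 for all genes.

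These small ratios depend on how libraries are scaled to each other. Beside the values as deposited, ratios were taken centred on the median of all genes and with each library scaled to its upper quartile, and the latter moved the median log2 ratio of all genes by -0.07 at E11 and 0.15 at E14. At E11, *Dcx*, *Elavl3*, *Ina*, *Map2*, *Mapt*, *Nefl* and *Nefm* were lower under all 3 scalings, *Tubb3* was higher under all 3, and *Stmn2* and *Gap43* moved from 0.02 and 0.05 as deposited to -0.05 and -0.02 under upper-quartile scaling. At E14, *Dcx*, *Gap43*, *Map2*, *Nefl* and *Stmn2* were lower under all 3, with *Gap43* between -0.57 and -0.42, *Nefl* between -0.54 and -0.39, *Dcx* between -0.44 and -0.29, *Stmn2* between -0.38 and -0.22 and *Map2* between -0.23 and -0.08. The E14 direction of *Tubb3*, *Mapt*, *Ina* and *Elavl3* turned to higher under upper-quartile scaling, at 0.02, 0.10, 0.06 and 0.07, and that of *Mapt* also turned after centring, at 0.02. *Dcx*, *Map2* and *Nefl* were therefore the genes lower in *Stat3* cKO at both stages under all 3 scalings.

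**Figure D3:**
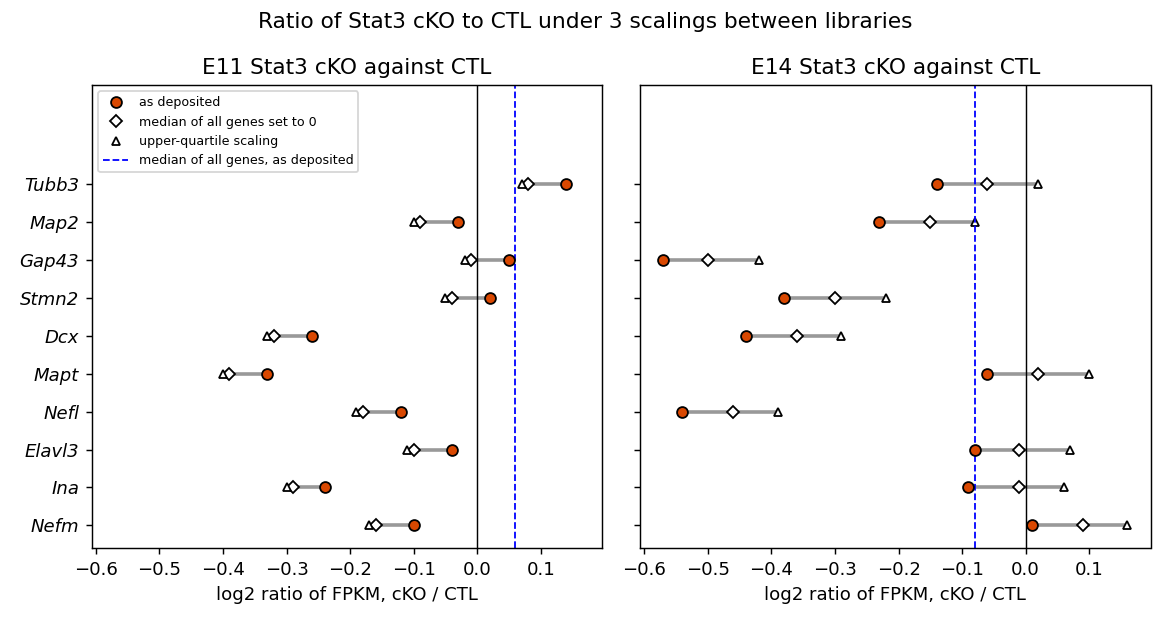
Log2 ratio of *Stat3* cKO to CTL for each gene at E11 (left) and E14 (right), with 1 library per group, as deposited (filled circles), centred on the median of all genes (diamonds) and after upper-quartile scaling (triangles); the dashed line is the median of all genes as deposited. At E11 *Tubb3* stands to the right of 0 under each scaling, and at E14 *Gap43*, *Nefl*, *Dcx* and *Stmn2* stand furthest to the left.

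The log2 genotype ratio was smaller at E14 than at E11 for 7 of the 10 genes as deposited, for 6 after centring on the median of all genes and for 4 under upper-quartile scaling, beside 62.1%, 48.5% and 39.8% of all genes. The difference of the log2 ratios, E14 minus E11, as deposited was -0.63 for *Gap43*, -0.42 for *Nefl* and -0.40 for *Stmn2*. It was 0.27 for *Mapt*, 0.15 for *Ina* and 0.11 for *Nefm*. Over the 10 genes the median difference was -0.19, and over all genes it was -0.12. After centring these medians were -0.05 and 0.02, and under upper-quartile scaling they were 0.03 and 0.1. The lower E14 ratios of *Gap43*, *Nefl* and *Stmn2* were larger than counting error at the estimated depth. For 9 of the 10 genes the counting standard error of a log2 ratio, taken over the longest GENCODE M21 transcript, was at most 0.0536. *Nefm* was the exception, with about 57.4 and 62.1 fragments per kilobase at E14. Over its transcript of 3680 bases the 95% counting interval of its E14 genotype ratio ran from -0.26 to 0.28. Which transcripts the authors counted is not stated, and a shorter one would widen these intervals. These intervals cover counting error only, not the spread between cultures.

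Between E11 and E14 several of the genes differed by more than 2-fold, some upward and some downward. In CTL, *Mapt* and *Gap43* (2 of 10) were at least 2-fold higher at E14, against 14.6% of all genes, and *Nefm* and *Ina* (2 of 10) were at least 2-fold lower, against 12.5% of all genes. In *Stat3* cKO, *Mapt* was at least 2-fold higher, against 10.1% of all genes, and *Nefm* was at least 2-fold lower, against 11.7%. By any margin 6 of 10 were higher at E14 in CTL, beside 60.5% of all genes, and 5 of 10 in *Stat3* cKO, beside 53.3%. These shares were close to those of all genes, and so were the medians: 0.22 for the 10 in CTL beside 0.21 for all genes, and -0.01 in *Stat3* cKO beside 0.06. Under upper-quartile scaling 4 of 10 were higher at E14 in either genotype, with 58.4% of all genes lower in CTL and 55.4% lower in *Stat3* cKO. The CTL and *Stat3* cKO contrasts use different libraries, each sharing its libraries with a genotype contrast above. Mesenchyme markers, at 1020 FPKM summed in E11 CTL and 11.8 in E14 CTL, moved with the same contrasts. So did the sums of radial glia markers, at 1550 and 7490 FPKM in E11 CTL and E14 CTL, and of oligodendrocyte lineage markers, at 68.7 and 557. In CTL 6 of 8 radial glia markers were higher at E14, *Fabp7* most, from 516 to 5250 FPKM, and *Pax6* and *Prom1* were lower. Of 5 oligodendrocyte lineage markers 4 were higher, and *Pdgfra* was lower, from 53.1 to 35.9 FPKM. *Ddx3y* also moved with stage in *Stat3* cKO. The part of these markers and of *Ddx3y* in the ratios was not tested.

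By stage the genes lay on both sides of 0. *Gap43*, *Map2*, *Mapt* and *Stmn2* were higher at E14 in both genotypes and under all 3 scalings. *Nefl*, *Nefm*, *Ina* and *Elavl3* were lower at E14 in both genotypes and under all 3 scalings, *Elavl3* by the smallest amounts as deposited, -0.08 in CTL and -0.13 in *Stat3* cKO. *Tubb3* and *Dcx* stayed between, at 0.30 and 0.13 in CTL and 0.02 and -0.05 in *Stat3* cKO, and upper-quartile scaling turned the CTL values to -0.07 and -0.24 and the *Stat3* cKO value of *Tubb3* to -0.13. Centring on the median of all genes also turned *Dcx* in CTL, to -0.08, and *Tubb3* in *Stat3* cKO, to -0.04. Upper-quartile scaling lowered the median of all genes by 0.37 in CTL and by 0.15 in *Stat3* cKO, and *Gap43* and *Mapt* in CTL, at 0.82 and 0.80, then no longer reached 2-fold.

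**Figure D4:**
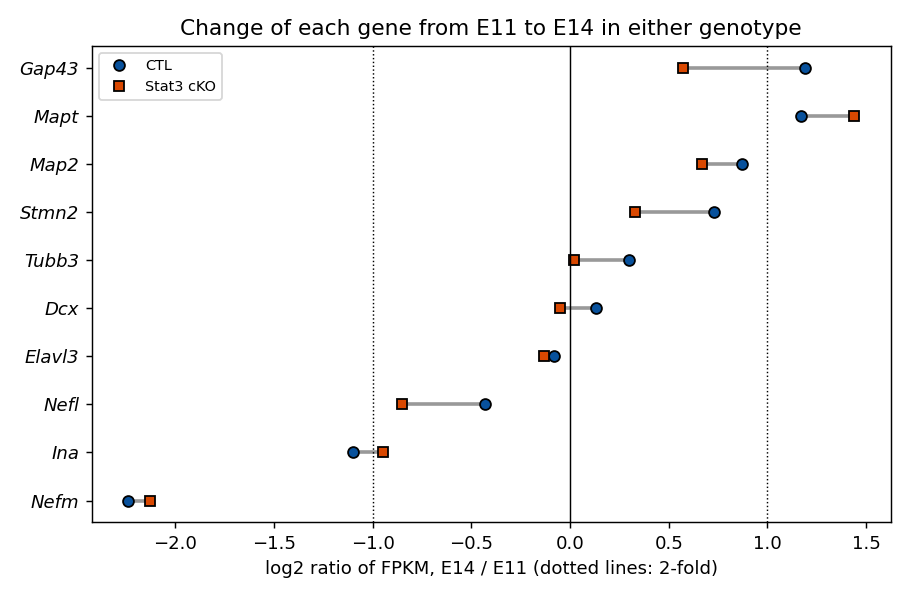
Log2 ratio of E14 to E11 for each gene in CTL (circles) and *Stat3* cKO (squares), 1 library per group, with dotted lines at 2-fold. *Gap43*, *Mapt*, *Map2* and *Stmn2* lie to the right of 0 in both genotypes and *Nefl*, *Ina* and *Nefm* to the left, with *Nefm* at -2.24 in CTL and -2.13 in *Stat3* cKO.

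Profiles over the 4 libraries were compared next. Each gene was centred on its own log2 mean, and the 9191 genes averaging 5 FPKM or more were kept, a minimum that *Nefm* missed. The distance to the median profile of the remaining 9 was taken as the root mean square over 4 libraries. *Tubb3* was the nearest of the 9, at 0.08, and 6.38% of all genes were nearer. *Ina* was the furthest, at 0.66, and 88.5% of all genes were nearer. The median distance over the 9191 genes was 0.25. The 5 genes nearest to the median profile were *Lin7c*, *Zfml*, *Fam216a*, *Naca* and *Trappc8*, at distances of 0.014 to 0.019. Genes outside the list thus lay nearer to the median profile than any of the 9 did.

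Other cytoskeletal genes gave a context for the 10. Of 12 other tubulin genes, 11 passed the minimum. In *Stat3* cKO, 3 of the 11 lay below CTL at E11 (median log2 ratio 0.20), beside 38.2% of all genes, and 8 of the 11 at E14 (median -0.22), beside 60.1%, and none reached 2-fold at either stage. Under upper-quartile scaling 6 of the 11 were lower at E14, beside 40.2% of all genes. *Tubb3* as deposited had the same pair of signs as *Tuba1a*, the main neuronal α-tubulin, which was measured at E11 at 1220 FPKM in CTL against 1490 in *Stat3* cKO, and at E14 at 2570 against 2220. From E11 to E14 in CTL, 5 of the 11 tubulins were at least 2-fold higher, beside 14.6% of all genes. After centring 3 of the 11 were, beside 1210 of 12430 genes, and under upper-quartile scaling 3, beside 896. In *Stat3* cKO as deposited, 1 of the 11 was at least 2-fold higher, beside 10.1% of all genes. That gene was *Tubb2a*, with log2 ratios of 2.21 in CTL and 1.71 for *Stat3* cKO. Among 17 microtubule-binding, doublecortin, stathmin and CRMP genes, 9 were lower in *Stat3* cKO at E11, beside 38.2% of all genes, and 12 at E14, beside 60.1%, with medians of -0.01 and -0.13. Upper-quartile scaling turned these counts to 12, beside 51.9%, and 7, beside 40.2%, and the E14 median to 0.02. *Map1b*, a microtubule-associated protein of growing axons, stood lower at E14 than at E11, with -0.74 for CTL and -1.03 for *Stat3* cKO on the log2 scale, opposite in sign to those of *Map2*.

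Growth cone and actin-linked genes lay on both sides of CTL at E14. In *Stat3* cKO, 1 of 8 lay below CTL at E11, beside 38.2% of all genes, and 4 of 8 at E14, beside 60.1%. Under upper-quartile scaling 1 and 2 did, beside 51.9% and 40.2%. *Basp1*, a membrane protein of growth cones related in function to *Gap43*, had 380 FPKM for CTL at E14 against 334 for *Stat3* cKO, a log2 ratio of -0.19, and *Marcks*, which binds actin and membrane, had a log2 ratio of 0.63. Of 8 kinesin and dynein motor genes, 6 were lower in *Stat3* cKO at E11, beside 38.2% of all genes, and 7 at E14, beside 60.1%, with medians of -0.15 and -0.36. Under upper-quartile scaling 8 and 6 were lower, beside 51.9% and 40.2%. *Kif5a* and *Kif5c*, neuronal kinesin heavy chains that carry axonal cargo, had E14 log2 ratios of -0.38 and -0.43. *Kif5b*, of the same family, had -0.45, and *Kif1a* had 0.05. Among the intermediate filament genes outside the 10, *Vim* and *Nes*, which progenitors express, were the 2 of 6 that passed the minimum, and both were higher at E14 than at E11, with log2 ratios of 1.42 and 1.40 in CTL, where *Nefl*, *Nefm* and *Ina* were lower.

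Of 26 other RNA-binding genes, 14 were lower in *Stat3* cKO at E11, beside 38.2% of all genes, and 19 at E14, beside 60.1%, with medians of -0.15 at either stage, and none reached 2-fold. Under upper-quartile scaling 17 were lower at E11, beside 51.9% of all genes, and 13 at E14, beside 40.2%, and 17 and 18 of the 26 lay below the median of all genes at E11 and E14. From E11 to E14 in CTL, 6 of the 26 were at least 2-fold lower, beside 12.5% of all genes, and 2 at least 2-fold higher, beside 14.6%. Under upper-quartile scaling 6 of the 26 were at least 2-fold lower, beside 2237 of all 12430 genes, and 0 at least 2-fold higher, beside 896. In *Stat3* cKO 3 were at least 2-fold lower, beside 11.7% of all genes, and 3 at least 2-fold higher, beside 10.1%. The splicing factor genes *Nova1* and *Nova2* were among the former in CTL, at -1.11 and -1.12, and stood at -0.58 and -0.41 in *Stat3* cKO. *Srrm4*, an activator of neuronal microexons, was at -1.68 in CTL and -1.48 in *Stat3* cKO, and *Khdrbs3* at 1.26 and 1.29. *Rest*, the repressor that keeps many neuronal genes silent outside neurons, was measured at E11 at 13.7 FPKM in CTL against 15.2 in *Stat3* cKO, and at E14 at 4.76 against 5.13, and was at least 2-fold lower at E14 in both genotypes, while its partners *Rcor1* and *Rcor2* were lower without reaching 2-fold.

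The labelled cell type was checked against markers. Radial glia markers were present at all stages, with *Sox2* between 128 and 284 FPKM and *Fabp7* between 516 and 5930 FPKM. Of these 8 markers, 7 stood above CTL in the *Stat3* cKO library of either stage, while 38.2% of all genes were lower at E11 and 60.1% at E14. Their medians were 0.13 at E11 and 0.26 at E14, beside 0.06 and -0.08 for all genes. Under upper-quartile scaling 6 were higher at E11, where 51.9% of all genes were lower. Of 5 intermediate progenitor markers (*Eomes*, *Neurog1*, *Neurog2*, *Btg2* and *Gadd45g*), 5 were higher in *Stat3* cKO at E11 (4 under both other scalings) and 4 at E14. Of all genes, 38.2% were lower at E11 and 60.1% at E14. The E14 exception was *Eomes*, at 8.50 FPKM in CTL against 7.33 in *Stat3* cKO, a log2 ratio of -0.21. *Neurog1* stood under 1 FPKM in both E14 libraries, at 0.24 in CTL and 0.318 in *Stat3* cKO. Of 6 neuron markers outside the 10 (*Rbfox3*, *Syt1*, *Snap25*, *Syp*, *Syn1* and *L1cam*), 5 were lower in *Stat3* cKO at E11, beside 38.2% of all genes, and 5 at E14, beside 60.1%, with medians of -0.26 and -0.21, and under upper-quartile scaling 5 and 3 were, beside 51.9% and 40.2%. *Snap25*, a synaptic vesicle fusion protein, was at 15.7 and 12.6 FPKM at E11 and at 37.6 and 28.4 FPKM at E14, in CTL and *Stat3* cKO.

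The medians of excitatory and inhibitory neuron markers had opposite signs. All 5 excitatory markers were lower in *Stat3* cKO at both stages under all 3 scalings. Of all genes, 38.2% were lower at E11 and 60.1% at E14 as deposited, 50% at either stage after centring, and 51.9% and 40.2% under upper-quartile scaling. As deposited the excitatory medians were -0.69 and -0.54. *Neurod6*, a transcription factor gene of cortical projection neurons, was at 8.14 and 3.76 FPKM at E11 and at 104 and 72.0 FPKM at E14, in CTL and *Stat3* cKO. Of 6 inhibitory markers, 4 were higher in *Stat3* cKO at E11, where 38.2% of all genes were lower, and 5 at E14, where 60.1% were lower. The exceptions were *Gad1* and *Gad2* at E11 and *Dlx5* at E14. The inhibitory medians were 0.13 at E11, beside 0.06 for all genes, and 0.22 at E14, beside -0.08. The summed level of the excitatory list was 43.7 and 29.7 FPKM in E11 CTL and E11 *Stat3* cKO, and 156 and 114 FPKM in E14 CTL and E14 *Stat3* cKO. That of the inhibitory list was 35.9, 37.1, 20.1 and 24.1 FPKM in the same order. All 4 microglia markers were under 1 FPKM in all libraries.

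**Figure D5:**
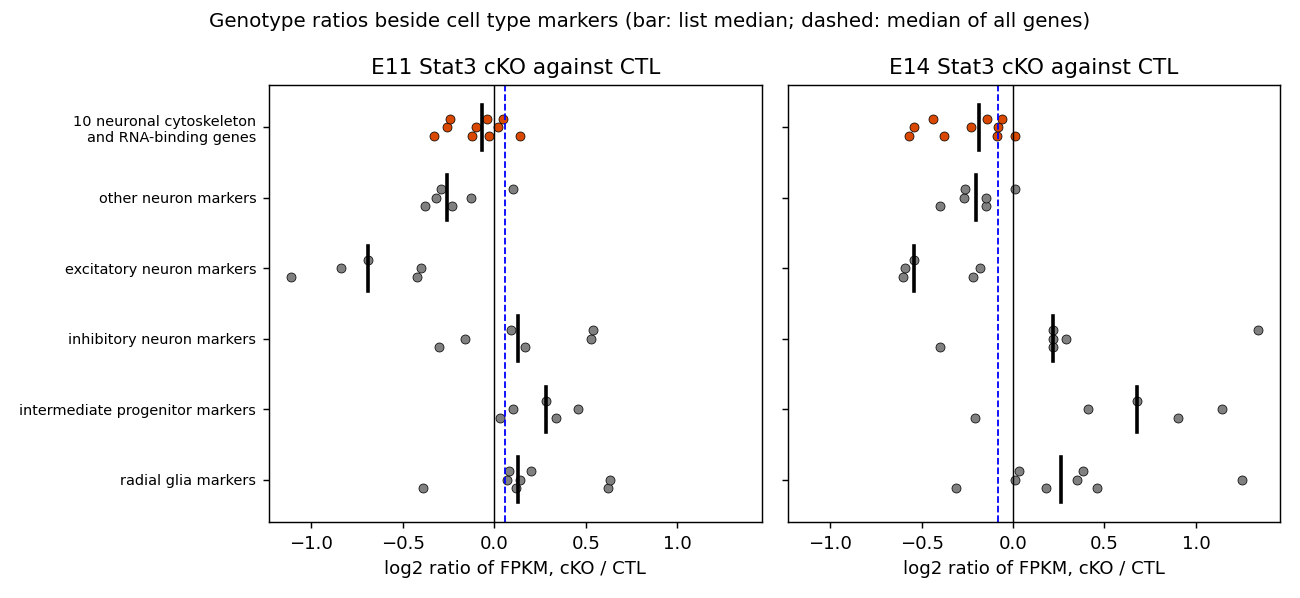
Log2 ratios of *Stat3* cKO over CTL, E11 on the left and E14 on the right, for the 10 genes (orange) and for the marker lists of other neuron, excitatory neuron, inhibitory neuron, intermediate progenitor and radial glia genes (grey), with 1 point per gene, a bar at each list's median and a dashed line at the median of all genes. The 10 genes have medians of -0.07 and -0.18, the excitatory markers -0.69 and -0.54, and the radial glia markers 0.13 and 0.26.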

How the data were processed

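Per the study's methods, Illumina HiSeq reads of the 4 libraries were checked with FastQC and processed with TopHat and Cufflinks, and the authors deposited FPKM values per gene. The submitters' processing notes name Bowtie 0.12.2 and the builds mm8 and mm9 without a role, so coordinates are printed as listed; annotation and strandedness are not given in the sources used here. FPKM is relative to the library's total, so ratios between libraries rest on that scaling.

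Plain ratios without a pseudocount were taken for genes averaging 1 FPKM or more, and a gene at 0 in either library had none. With 1 library per group no test was made, and counts past 2-fold stand beside the share of all genes. Depth came from the smallest steps of values under 0.05 FPKM and GENCODE M21 transcript lengths. The 10 genes and all lists were chosen with earlier results of these data known. Genes named are the 10, *Stat3*, Y-linked genes, list members beside their list's count, the 5 nearest profiles and *Nt5c2*; *Nt5c2* and those given singly from a list were chosen after their values were seen. Alternatives were pseudocounts of 0.1 and 1, centring on the median of all genes, upper-quartile scaling, no minimum or a minimum mean of 5 FPKM, and thresholds of 1.5 and 3. Steps were tested on simulated data. Python 3.11.15, numpy 2.4.6, pandas 2.3.3 and matplotlib 3.10.9 were used. Promoters are RefSeq (GRCm38.p6), another build than the listed coordinates; *Mapt*, *Stmn2*, *Gap43*, *Nefl* and *Nefm* had no entry in that table. Results of the peripheral neuron and neural crest list as a whole are not reported here.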

Additional observations from a re-analysis of the deposited data

Results flagged for a closer look

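The following genes had a ratio of opposite sign in 2 parallel comparisons. With 1 library per group, none of these differences was tested. For *Stat3* cKO against CTL, the log2 ratio of *Tubb3* was 0.14 at E11 and -0.14 at E14, and the signs stayed opposite after centring on the median of all genes (0.08 and -0.06) but not under upper-quartile scaling, where the E14 value was 0.02. That of *Stmn2* was 0.02 at E11 and -0.38 at E14, and that of *Gap43* was 0.05 at E11 and -0.57 at E14. For *Stmn2* and *Gap43* the E11 value was below 0 under both other scalings, so that only the size of the difference between the stages was left. That of *Nefm* was -0.10 at E11 and 0.01 at E14, where the 95% counting interval ran from -0.26 to 0.28. For E14 against E11, the log2 ratio of *Dcx* was 0.13 in CTL and -0.05 in *Stat3* cKO, and both were below 0 once ratios were centred.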

How the results depend on the processing

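Of 40 ratios (10 genes in 4 comparisons), 0 changed sign under pseudocounts of 0.1 and 1, 5 with ratios centred on the median of all genes, and 9 under upper-quartile scaling. The median log2 ratio of the 10 for E14 against E11 in CTL, 0.22 as deposited, was 0.0 after centring and -0.15 under upper-quartile scaling. Under upper-quartile scaling that for E14 against E11 in *Stat3* cKO was -0.16, and that for *Stat3* cKO against CTL at E14 was -0.03. The count at least 2-fold higher at E14 in CTL, 2 as deposited, was 0 after centring, 0 under upper-quartile scaling, 4 at a threshold of 1.5 and 0 at a threshold of 3. In *Stat3* cKO this count, 1 as deposited, was 2 at 1.5 and 0 at 3. The count at least 2-fold lower at E14 in CTL, 2 as deposited, was 1 with a minimum mean of 5 FPKM, which *Nefm* misses, and 1 at a threshold of 3. In *Stat3* cKO the count lower, 1 as deposited, was 2 after centring, 3 under upper-quartile scaling, 0 with a minimum mean of 5 FPKM and 3 at a threshold of 1.5. For *Stat3* cKO against CTL, 0 of the 10 reached 2-fold at either stage under both scalings and both pseudocounts.

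Each group had 1 library, so spread between embryos and cultures is unknown and a group cannot be told apart from its library. Sex of the embryos cannot be told apart from the contrasts that use E14 *Stat3* cKO. Leaving out a replicate was not possible. No paired analysis was possible because the labels give no replicate numbers and each group held 1 library. The fewest fragments stood behind *Nefm* at E14, about 57.4 and 62.1 per kilobase.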

Other observations

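Several markers of glia differed by stage. *Olig1* and *Olig2*, transcription factor genes of the oligodendrocyte lineage, were measured at 1.64 and 11.9 FPKM in E11 CTL and at 345 and 168 FPKM in E14 CTL. As deposited, 4 of 5 markers of that lineage were at least 2-fold higher at E14 in either genotype, beside 14.6% of all genes in CTL and 10.1% in *Stat3* cKO. Under upper-quartile scaling 3 of 5 were in CTL, beside 896 of 12430 genes. Of 4 analysed astrocyte markers, 2 were at least 2-fold higher at E14 in CTL, beside 14.6% of all genes, and 2 at least 2-fold lower, beside 12.5%; in *Stat3* cKO these were 2 and 1, beside 10.1% and 11.7%. *Gja1*, a gap junction gene, was at 138 FPKM in E11 CTL and at 13.1 in E14 CTL, and *Slc1a2*, a glutamate transporter gene, was at 9.73 and 4.42. *Aldh1l1*, an astrocyte enzyme of folate metabolism, was measured at E11 at 8.90 FPKM in CTL against 7.06 in *Stat3* cKO, and at E14 at 78.6 against 136. *Gfap*, the astrocyte filament gene, stayed under 1 FPKM in all 4 libraries, with 0.901 FPKM in E14 CTL against 0.186 in E14 *Stat3* cKO. *Hes5*, a Notch target gene of radial glia, was measured at E11 at 88.5 FPKM in CTL against 137 in *Stat3* cKO, and at E14 at 124 against 294, so that *Stat3* cKO was the higher library at both stages. For *Stat3* cKO against CTL, 1 of 4 analysed astrocyte markers, *Gfap* not among them, was higher at E11 and 4 of 4 at E14. Of 5 oligodendrocyte lineage markers, 5 were higher at E11 and 3 at E14, while 38.2% and 60.1% of all genes were lower. Under upper-quartile scaling the oligodendrocyte lineage counts became 3 of 5 and 4 of 5, while 51.9% and 40.2% of all genes were lower. The endothelial list had 1 gene above the minimum and the erythroid list 0.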
